A study of Mus musculus with 2 samples.

Results

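The genes described here are 8 components of the Wnt and beta-catenin pathway, Ctnnb1, Apc, Axin1, Axin2, Gsk3a, Gsk3b, Tcf7l1 and Fzd7. Their sites were taken as all unique combinations of chromosome, position and strand in the deposited m6A lists that lie within exons of these genes on the same strand, and 189 of the 160430 listed positions met this rule. m6A is a methyl mark on adenosine in mRNA that the Mettl3 enzyme complex deposits, mostly in RRACH sequences (R is A or G and H is A, C or T). Poly(A) RNA of mouse 129 embryonic stem cells was read by nanopore direct RNA sequencing, in which native RNA passes through the pore, in 2 libraries. The WT library came from wild-type cells. The KO library came from cells in which a block of Mettl3 exons on both alleles had been exchanged for puromycin and hygromycin resistance genes, and neither the labels nor the methods say how many clones it holds. With 1 library per condition and no replicates, no test between conditions was possible, and all intervals cover counting error only. Positions of 1 gene share reads and are not replicates.

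Ctnnb1 encodes beta-catenin, the effector of canonical Wnt signalling and a partner of cadherins at cell junctions. Without a Wnt signal, Apc and the axins (Axin1, Axin2) hold beta-catenin near the kinases Gsk3a and Gsk3b, which phosphorylate it and mark it for degradation. When a Wnt ligand binds a Frizzled receptor such as Fzd7, this destruction complex is inhibited and beta-catenin reaches TCF/LEF factors. In mouse embryonic stem cells Tcf7l1 is a repressor of pluripotency genes, and inhibition of Gsk3 is widely used to keep such cells in self-renewal.

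The 17 lists come from 10 tools. Single-mode tools, which take 1 library at a time, are Tombo, MINES, m6Anet, Nanom6A, Epinano and ELIGOS, each with a WT and a KO list. xPore works in compare-mode and also has both lists, and Nanocompore, DiffErr and DRUMMER each have 1 list from WT against KO. A list gives positions only, with no score, rate or coverage, so that a position that goes unlisted in KO may have had reads without a call or too few reads, which cannot be told apart. Mettl3 itself had 9 WT positions and 0 KO positions in the exons up to the last replaced one. Of 10 embryonic stem cell marker genes, 9 had listed positions, with a median over the 9 of 26 positions in WT or comparison lists and 20 in KO. In the same order, Pou5f1 had 25 and 25, Sox2 26 and 22, Nanog 37 and 35, Klf4 32 and 15, and Zfp42 18 and 18. Esrrb had 50 and 38, Tfcp2l1 11 and 2, Dppa5a 6 and 6, and Tdgf1 34 and 20. Of 10 genes of differentiated cells, 4 had listed positions, Sox17 with 12 in WT and 0 in KO, Nes and Eomes with 3 and 0 each, and Col1a1 with 0 and 3.

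The sequences below show, for 7 of the genes, a position with the most tools in its WT or comparison lists, so that the bases around a called adenosine can be seen. Several positions were tied in Gsk3a, Gsk3b and Fzd7, where all 7 WT positions had 1 tool, and there the one with the fewest KO lists and then the first on the transcript was taken. They were read from the GRCm38 genome on the strand of the gene, with the listed adenosine in the middle of 21 bases and its 5-mer in capitals, and T stands for U. Distances run along the spliced transcript and start at the first stop codon base.
Ctnnb1, 79 nt after, 3′ UTR, chr9:120959584-120959604, plus strand: ctccagaaAGACTtggtaggg
Axin1, 2 nt before, coding sequence, chr17:26195047-26195067, plus strand: gaaaaggtGGACTgagcactg
Axin2, 153 nt after, 3′ UTR, chr11:108949536-108949556, plus strand: ctagggagGGACTggcgcctg
Gsk3a, 503 nt before, coding sequence, chr7:25230809-25230829, minus strand: ttccctggGGACAgtggggtg
Gsk3b, 1356 nt before, 5′ UTR, chr16:38090420-38090440, plus strand: ttgcgggaGAACTtaatgctg
Tcf7l1, 115 nt after, 3′ UTR, chr6:72627237-72627257, minus strand: accactctGGACTgttctgta
Fzd7, 1032 nt after, 3′ UTR, chr1:59485698-59485718, plus strand: gttgagatAAACAttcctttt

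Beside these are 5 positions of Ctnnb1 and Gsk3a that at least 3 tools listed in KO, shown as examples of bases that were called in the library without Mettl3. They are not all such positions, so that no frequency of a 5-mer can be read from them.
Ctnnb1, 2294 nt before, coding sequence, chr9:120950548-120950568, plus strand: atggagccGGACAgaaaagct
Ctnnb1, 874 nt before, coding sequence, chr9:120955603-120955623, plus strand: ttcattatGGACTgcctgttg
Ctnnb1, 291 nt before, coding sequence, chr9:120957847-120957867, plus strand: cctcttcaGGACAgagccaat
Ctnnb1, 883 nt after, 3′ UTR, chr9:120960388-120960408, plus strand: cttgttttGGACAgtatacca
Gsk3a, 126 nt after, 3′ UTR, chr7:25228720-25228740, minus strand: aggtaaatGAACTacccccag

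Over the 8 genes, WT or comparison lists held 164 positions and KO lists 127. Both kinds of list held 102 of them, 62 were in WT or comparison lists only and 25 in KO lists only. The 62 made up 37.8% of the WT or comparison positions (95% Wilson interval 30.7% to 45.4%), against 41.0% of those in the whole series. When Tombo and Nanom6A were left out of the KO lists but kept in the WT lists, the share was 76.2% (69.2% to 82.1%). A rise is built into that setting, and the share of the series under it was not computed. The 25 made up 19.7% of the KO positions (13.7% to 27.4%), against 29.2% in the whole series. The interval of the first share held that of the series, but the share was 50.9% (41.8% to 59.9%) without Ctnnb1 and 29.2% (22.4% to 37.1%) without Axin2, on either side of the series. The second rested on Ctnnb1, with 1 of its 47 KO positions, and without this gene it was 24 of 80 (interval 21.1% to 40.8%), close to the series. The ratio of KO to WT or comparison positions was 0.774 (exact binomial interval 0.609 to 0.982) in the 8 genes and 0.834 in the series.

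**Figure D1:**
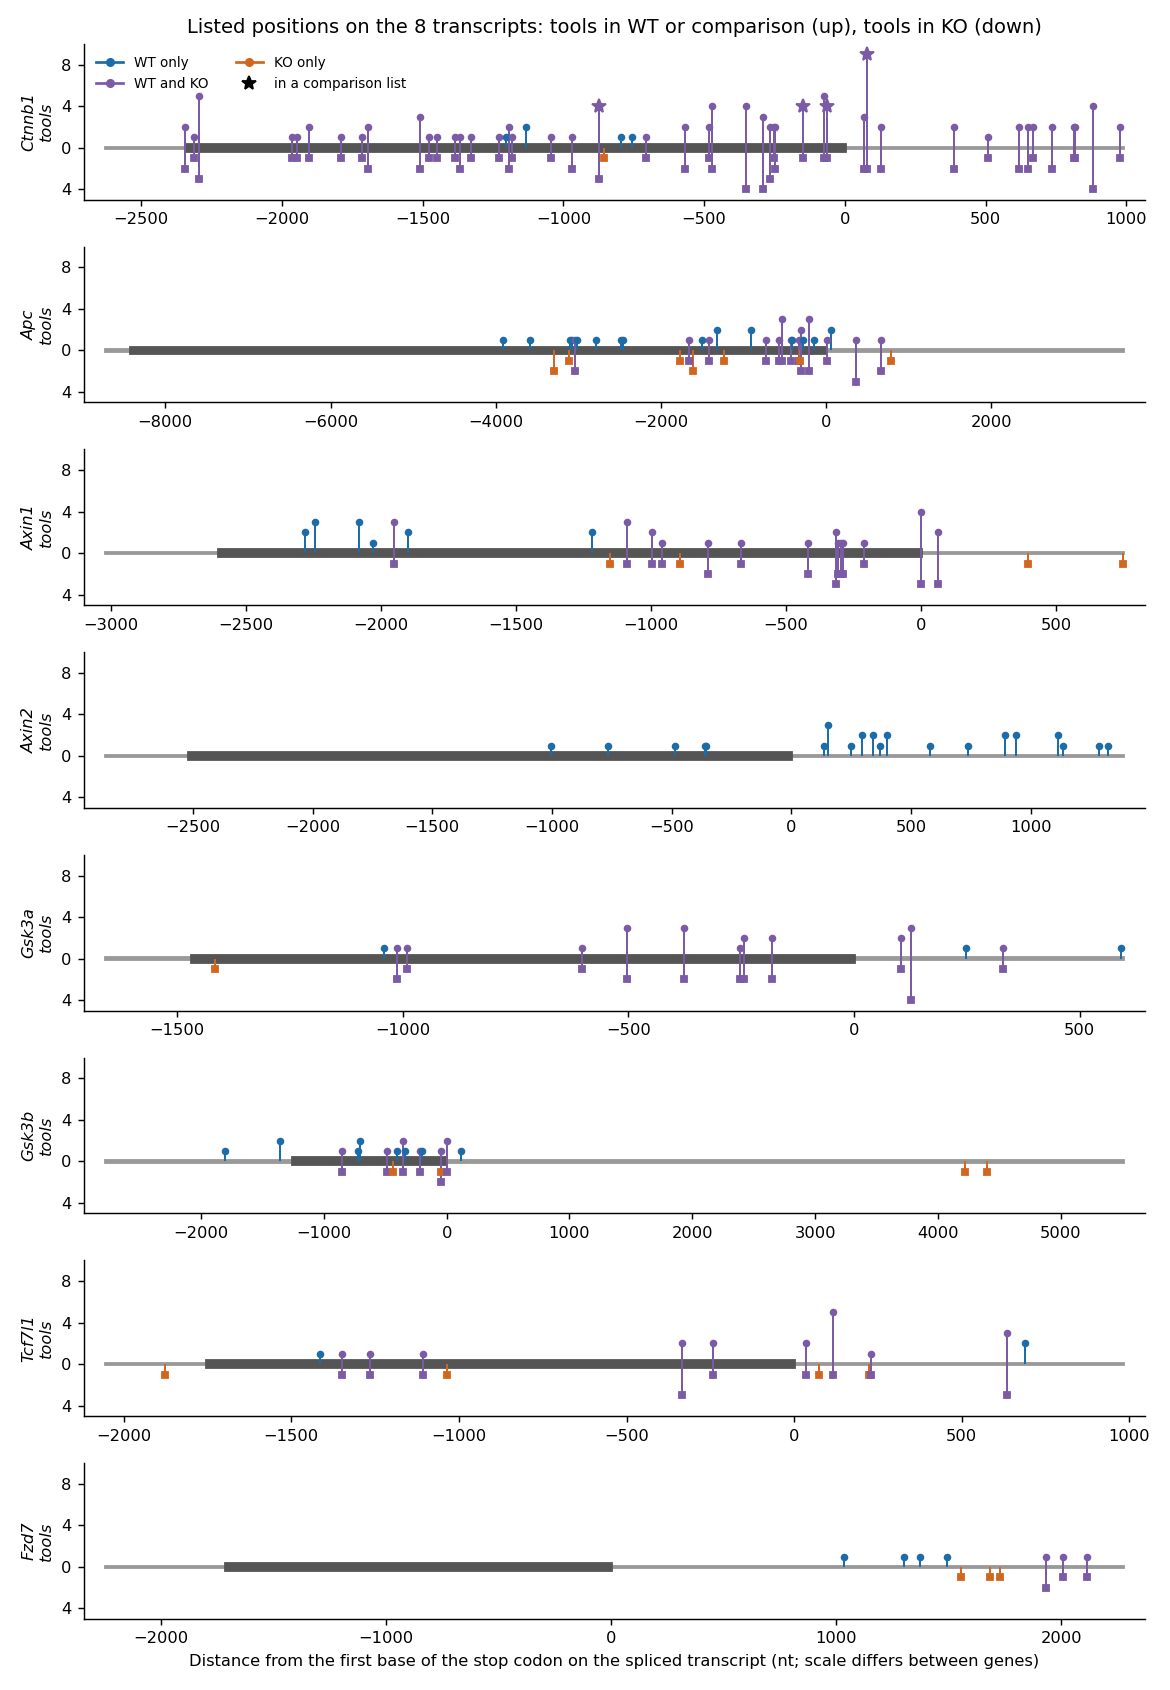
Listed positions of the 8 genes along the spliced transcript, in nt from the start of the stop codon, with thick bars for coding sequence and thin bars for UTRs. The height above the bar is the number of tools in WT or comparison lists and the depth below it the number in KO lists; the 4 stars in Ctnnb1 are the comparison-list positions, and no mark lies below the bar of Axin2.

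The genes differed in how much of their sequence was listed. Ctnnb1 had 50 of its 54 RRACH positions in WT or comparison lists (92.6%), Gsk3a 56.0%, Axin1 52.6%, Tcf7l1 42.3%, Axin2 32.3% and Gsk3b 11.9%, while Apc had 28 of 200 and Fzd7 7 of 50. Over 9914 coding genes with a listed position and at least 10 RRACH positions the median was 29.2%, the upper quartile 47.7% and the 90th percentile 65.0%. Thus Ctnnb1 lay above the 90th percentile, Gsk3a and Axin1 above the upper quartile, and Apc, Fzd7 and Gsk3b in the lower part of the distribution. In KO the same share was 87.0% for Ctnnb1, 13 of 26 for Tcf7l1, 48.0% for Gsk3a, 47.4% for Axin1, 12.0% for Fzd7, 10.5% for Apc, 8.47% for Gsk3b and 0 for Axin2, against a median of 22.2%. Tcf7l1 was the single gene of the 8 with more positions in KO than in WT, 13 against 11 (ratio 1.18, interval 0.489 to 2.91).

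**Figure D2:**
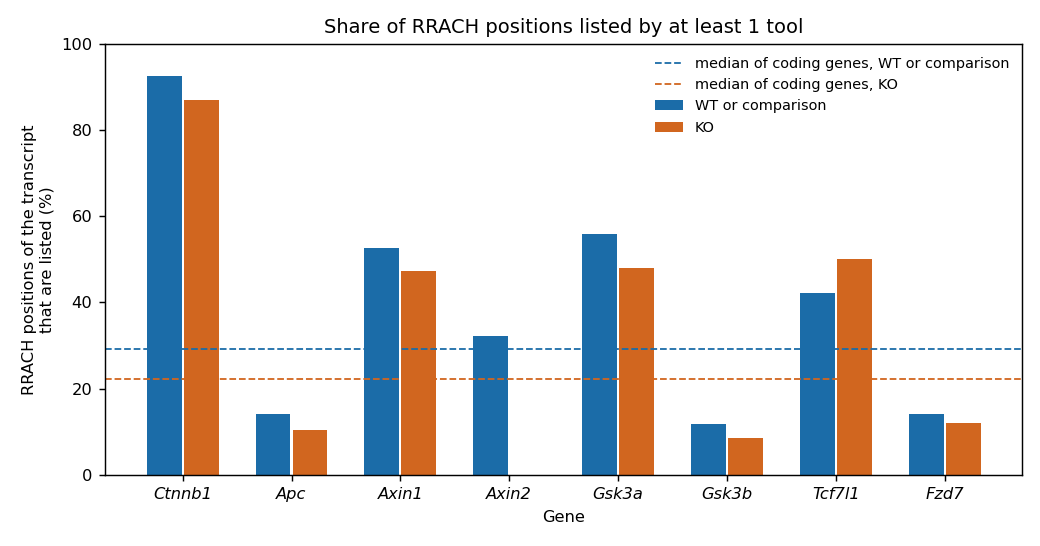
Share of the RRACH positions of each gene's transcript that at least 1 tool listed, in percent, for WT or comparison lists and for KO lists, with dashed lines at the medians of coding genes (29.2% and 22.2%). Ctnnb1 reaches 92.6% and 87.0%, and Axin2 has no KO bar.

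Ctnnb1 (ENSMUSG00000006932, chromosome 9, 120929216 to 120960507, plus strand) had by far the most listed positions of the 8 genes, 51 on a transcript of 3623 nt with 15 exons. It had 50 positions in WT or comparison lists and 47 in KO, of which 46 were shared. The sites covered the whole transcript: 1 of 1 RRACH position in the 5′ UTR, 37 of 40 in the coding sequence and 13 of 13 in the 3′ UTR were listed, and all 13 in the 3′ UTR were listed in both libraries. Nanom6A gave most of them, with 46 positions in WT and 40 in KO, and all 40 were among the 46. Tombo listed 21 in each library, with 18 in common. m6Anet listed 18 in WT and 9 in KO, and Epinano 8 and 3. The KO list of Nanom6A repeated 87.0% of its WT positions in Ctnnb1 (74.3% to 93.9%), against 65.4% in the series. Nanom6A listed 85.2% of the 54 RRACH positions in WT and 74.1% in KO, and how much overlap list size alone would give was not tested. The KO list of m6Anet repeated 44.4% (24.6% to 66.3%), against 34.4% in the series, and that of Epinano 2 of 8 (7.15% to 59.1%), against 16.5%, and both intervals held the share of the series. For Tombo it was 18 of 21 (85.7%, 65.4% to 95%), against 59.7%, with 38.9% of the RRACH positions listed in each library. For MINES, which takes values from Tombo, it was 5 of 6 (83.3%, 43.6% to 97.0%), against 40.2%. Both intervals lay above the share of the series, but the tools are not independent.

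The comparison lists held 4 positions of the 8 genes, and all 4 were in Ctnnb1. They made up 2.44% of the WT or comparison positions of the 8 genes (0.952% to 6.10%), against 2.45% in the series, and 15.3% of the coding genes with a listed position had at least 1. The position with the most tools, 120959594 in the 3′ UTR, was an AGACT in exon 15 that 9 tools listed, all 7 tools with a WT list and, in the comparison, Nanocompore and DiffErr, and DRUMMER was the one tool that did not. In KO, Tombo and Nanom6A listed it. It was the single position of the 8 genes with at least 6 tools, 0.610% of their WT or comparison positions (0.108% to 3.37%) against 1.98% in the series. The other 3 comparison positions lay in the coding sequence. A GGACC at 120959453, 62 nt before the stop codon, was listed by Nanom6A and m6Anet in WT, by Nanocompore and DiffErr in the comparison, and by Nanom6A alone in KO. A GGACC at 120959366, 149 nt before it, was listed by Nanom6A and m6Anet in WT, by DiffErr and DRUMMER in the comparison, and again by Nanom6A alone in KO. A GGACT at 120955613 in exon 9, 874 nt before it, was listed by Nanocompore in the comparison, and by the same 3 tools, Tombo, Nanom6A and m6Anet, in WT and in KO. Of the 4 positions, 3 lay in the last exon within 200 nt of the stop codon, a window that held 6 of the 50 WT or comparison positions of Ctnnb1. Each of the 4 was also in a KO list, as were 46 of the 50. The same shares over all comparison-list positions were not computed.

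A pair of positions of Ctnnb1 outside the comparison lists had 5 single-mode tools in WT. A GGACA at 120959442, 73 nt before the stop codon, was listed in WT by Tombo, Nanom6A, m6Anet, ELIGOS and Epinano and in KO by Nanom6A alone. A GGACA at 120950558 in exon 3, which encodes part of the N-terminal region of beta-catenin, had the same number of tools in WT (Tombo, MINES, m6Anet, Nanom6A, Epinano) and was listed in KO by Tombo, MINES and m6Anet. With 5 tools each in WT, the first had 1 tool in KO and the second 3. The positions 120957857 (exon 13) and 120960398 (exon 15, 3′ UTR), both GGACA, were each listed in KO by Tombo, MINES, Nanom6A and m6Anet. In WT the same 4 tools listed the second of them, and Tombo, MINES and Nanom6A the first.

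Apc (ENSMUSG00000005871, chromosome 18, 34220924 to 34322552, plus strand) encodes the large scaffold of the destruction complex, and its transcript of 12346 nt was the longest of the 8. It had 36 listed positions, 28 in WT and 21 in KO, with 13 shared, 15 in WT only and 8 in KO only. All 36 lay in the last exon, of 10185 nt, which also holds most of the transcript. The 84 RRACH positions before the first listed one had no listing, and that position lay 7520 nt from the 3′ end, 60.9% of the length of the transcript. The listed position nearest the annotated 3′ end still lay 2830 nt from it, and 5 of 35 RRACH positions of the 3′ UTR were listed. Tombo listed 20 positions in WT and 18 in KO, Epinano 12 and 5, and MINES 4 and 3. Nanom6A listed none in either library, while m6Anet listed 0 in WT and 2 in KO and ELIGOS 0 and 1. Its most tools in WT were 3, Tombo, MINES and Epinano, at 34318040, 539 nt before the stop codon, and at 34318375, 204 nt before it. In KO the first was listed by Tombo and the second by Tombo and m6Anet. At 34318945, 366 nt after the stop codon, Tombo listed a site in WT and Tombo, ELIGOS and Epinano in KO, so that this position had more tools in KO than in WT.

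Axin1 (ENSMUSG00000024182, chromosome 17, 26138688 to 26195811, plus strand) and Axin2 (ENSMUSG00000000142, chromosome 11, 108920349 to 108950783, plus strand) encode related scaffolds, and Axin2 is itself a widely used target gene of Wnt signalling. Each had 20 WT positions. In KO, Axin1 had 18 and Axin2 had 0. The ratio of KO to WT positions was 0.900 for Axin1 (0.449 to 1.79) and 0 for Axin2 (0 to 0.203). In Axin2, Epinano listed 16 WT positions, Tombo 8 and MINES 4, and the other tools none. For genes with at least 10 WT or comparison positions, 3.0% (171 of 5696) had no KO position, and among those that also had no WT position of Nanom6A or m6Anet, as in Axin2, 8.24% had none. Of the 20 Axin2 positions, 15 lay in the 3′ UTR, where 15 of 21 RRACH positions were listed, and 5 in the coding sequence, where 5 of 36 were. Its GGACT at 108949546 was listed by Tombo, MINES and Epinano, the most for this gene. The depth of Axin2 in the 2 libraries is unknown, so that fewer reads and fewer called positions cannot be told apart here, and with bulk RNA neither can fewer cells with the transcript and less of it per cell.

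In Axin1 Tombo listed 19 positions in WT and 14 in KO, with 13 shared, and Epinano 11 and 1. Both tools also had shorter KO lists in the whole series, 68039 against 75219 positions for Tombo and 15112 against 44559 for Epinano. Nanom6A went the other way, with 1 in WT and 9 in KO, and so did m6Anet, with 0 in WT and 3 in KO. Among all coding genes with a position in either library, 29.1% had more Nanom6A positions in KO than in WT, and 23.5% more m6Anet positions. The 6 Axin1 positions in WT only lay from 2280 to 1219 nt before the stop codon. The GGACT at 26195057, whose adenosine lies 2 nt before the stop codon so that the 5-mer reaches into it, was listed by Tombo, MINES, Nanom6A and Epinano in WT and by Tombo, Nanom6A and m6Anet in KO. xPore listed 1 Axin1 position in WT, an AGACT at 26187950, 1089 nt before the stop codon, which Tombo and Epinano also listed in WT and Tombo in KO.

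**Figure D3:**
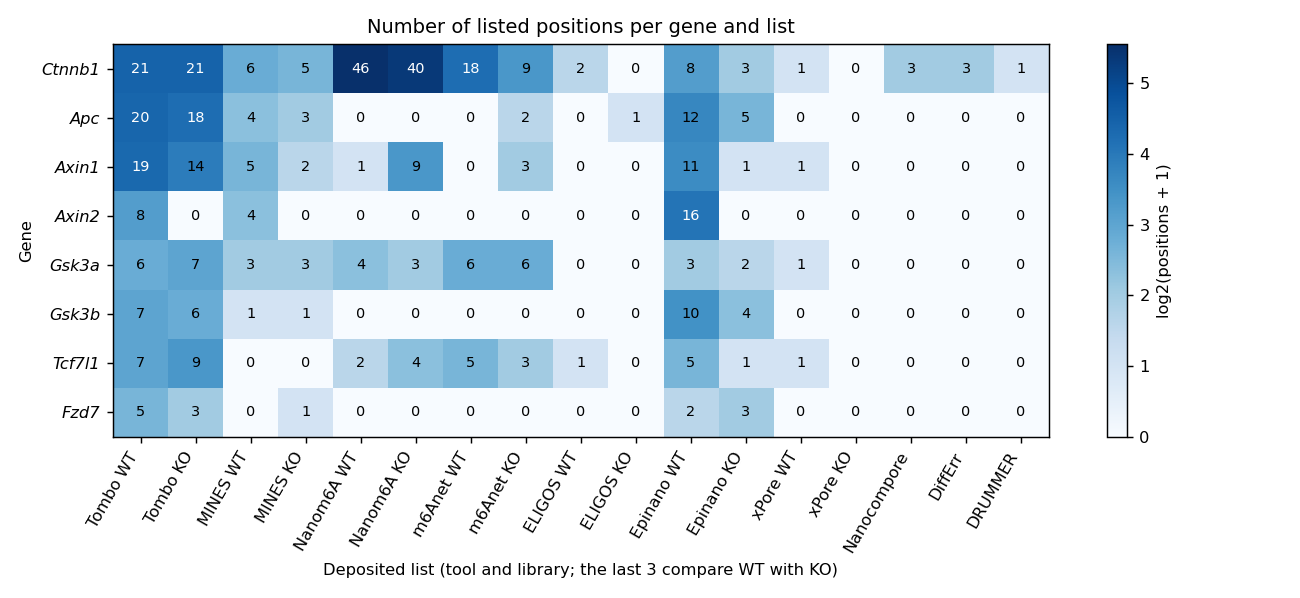
Number of listed positions of each of the 8 genes (rows) in each of the 17 lists (columns), with colour on a log2(positions + 1) scale. Ctnnb1 has 46 and 40 positions in the Nanom6A lists, Axin1 has 1 in WT and 9 in KO for the same tool, and Axin2 has values in the WT lists of Tombo, MINES and Epinano only.

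The kinases Gsk3a (ENSMUSG00000057177, chromosome 7, 25228258 to 25237851, minus strand) and Gsk3b (ENSMUSG00000022812, chromosome 16, 38089001 to 38246084, plus strand) are encoded by paralogous genes with transcripts of very different length, 2260 nt and 8303 nt. Both had 14 WT positions. In KO, Gsk3a had 12, of which 11 were shared, and Gsk3b had 10, of which 6 were shared. In the 3′ UTR of Gsk3a 5 of 6 RRACH positions were listed, and in the 3′ UTR of Gsk3b, which is 5515 nt long, 4 of 83. Beyond 200 nt after the stop codon Gsk3b had 0 WT positions and 2 KO positions among 76 RRACH positions. Tombo, MINES, m6Anet, Nanom6A and Epinano listed positions of Gsk3a in both libraries, while Nanom6A and m6Anet listed no position of Gsk3b in either library. The GAACT at 25228730 in the 3′ UTR of Gsk3a was listed by Tombo, m6Anet and Epinano in WT and by the same 3 tools and Nanom6A in KO. In Gsk3b 4 positions were tied at 2 tools in WT. The GAACT at 38090430 in the 5′ UTR and the GAACC at 38187890 had Tombo and Epinano in WT and 0 tools in KO, while the GGACA at 38208085 and the GAACA at 38240570 were also listed by Tombo in KO.

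The coding sequences of Gsk3a and Gsk3b shared 2 listed positions, which were picked out after their values were seen. A GGACA in exon 7, 35 nt from the exon junction in both genes, was identical at 19 of 21 bases around the adenosine, as the window of Gsk3b beside that of Gsk3a above shows.
Gsk3b, exon 7, chr16:38193950-38193970, plus strand: tttcctggGGACAgtggtgtg
Tombo listed it in both genes and both libraries. MINES listed the Gsk3a copy in WT and KO, and m6Anet listed it in WT. A GGACA in exon 8, 6 nt from the junction in both genes, was identical at 17 of 21 bases, of which the last lie in the intron. Tombo listed it in both genes and both libraries, MINES in both libraries for Gsk3a and in WT for Gsk3b, and Nanom6A in WT for Gsk3a. No pair of listed positions with at least 15 of 21 identical bases was found between Axin1 and Axin2.

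Tcf7l1 (ENSMUSG00000055799, chromosome 6, 72626378 to 72789254, minus strand) had 15 listed positions, 9 of them in both libraries. The GGACT at 72627247, 115 nt after the stop codon, was listed by 5 tools in WT, Tombo, Nanom6A, m6Anet, ELIGOS and Epinano, and by m6Anet alone in KO. It was the only position outside Ctnnb1 with 5 tools. A GGACT at 72626728, 634 nt after the stop codon, was listed by Tombo, m6Anet and Epinano in WT and by the same tools in KO. A GGACT at 72626672, 690 nt after it, had m6Anet and xPore in WT and 0 tools in KO. A GGACT at 72627327, 35 nt after it, had Tombo and m6Anet in WT and Tombo in KO. The 4 GGACT positions of this 3′ UTR thus had from 0 to 3 tools in KO.

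Fzd7 (ENSMUSG00000041075, chromosome 1, 59482424 to 59486955, plus strand), which encodes a Wnt receptor, is a gene of 1 exon and had the fewest positions, 7 in WT and 6 in KO, with 3 shared. All 10 listed positions lay in the 3′ UTR, 1032 nt or more after the stop codon, and within 1247 nt of the 3′ end. The 33 RRACH positions before the first of them, 16 in the coding sequence, had no listing. Tombo listed 5 in WT and 3 in KO, Epinano 2 and 3, and MINES 0 and 1, and the other tools none. No position of Fzd7 was listed by more than 1 tool in WT.

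By tool, the 8 genes held 93 WT and 78 KO positions of Tombo, 67 and 19 of Epinano, 53 and 56 of Nanom6A, 29 and 23 of m6Anet, 23 and 15 of MINES, 3 and 1 of ELIGOS and 4 and 0 of xPore. In the whole series the KO list was shorter than the WT list for each of these 7 tools, with 27861 against 33539 positions for Nanom6A and 13615 against 23473 for m6Anet. The KO list of the same tool repeated 138 of 272 WT listings (50.7%, 44.8% to 56.6%), against 44.5% in the series. For Nanom6A it repeated 44 of 53 (83.0%, 70.8% to 90.8%), against 65.4% in the series, and 40 of these 44 were in Ctnnb1. For Tombo it repeated 60 of 93 (64.5%, 54.4% to 73.5%), against 59.7%, and for Epinano 9 of 67 (13.4%, 7.23% to 23.6%), so that both intervals held the share of the series. Without Ctnnb1 the share over all tools was 38.2% (31.3% to 45.7%), so that the value above that of the series rested on this gene.

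**Figure D4:**
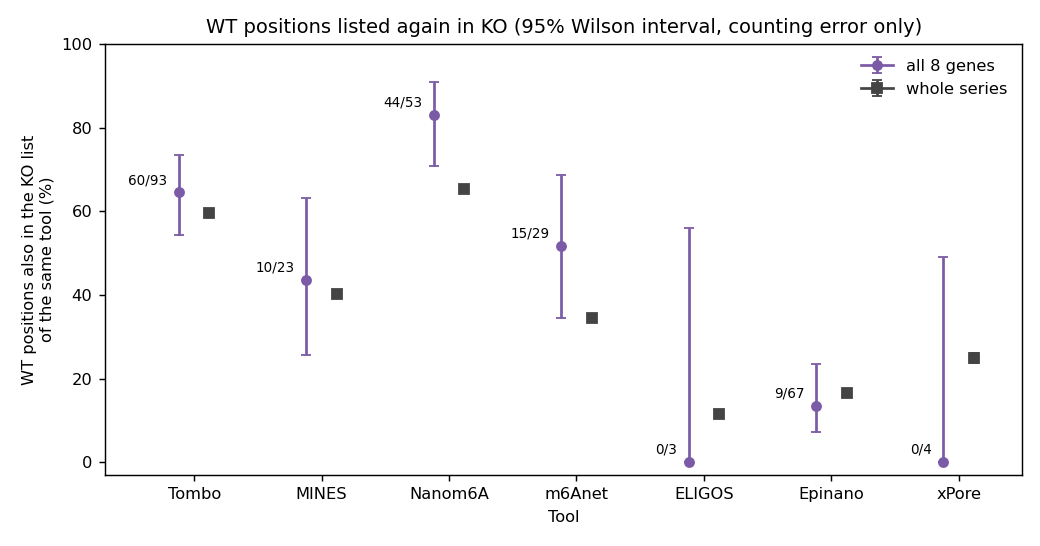
Share of the WT positions of each tool that its own KO list repeated, in percent, for the 8 genes and for the whole series, with 95% Wilson intervals and the counts of the 8 genes beside the points. Nanom6A has the highest share, 83.0% in the 8 genes, and ELIGOS and xPore repeated 0 of 3 and 0 of 4.

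Among the 12 RRACH 5-mers, GGACA had the most positions in WT or comparison lists. Of 26 GGACA positions 23 were also in a KO list (88.5%, 71.0% to 96.0%), against 66.3% of GGACA positions in the series, and in Ctnnb1 all 10 were. Of 23 GGACT positions 14 were also in KO (60.9%, 40.8% to 77.8%), against 52.7% in the series. Of 14 AGACT positions 6 were also in KO (42.9%, 21.4% to 67.4%), against 50.2% in the series. For 11 of the 12 5-mers the interval held the share of the series, and that of GGACA lay above it. Without Ctnnb1, 13 of 16 GGACA positions were also in KO (81.2%), and the wider interval of 57.0% to 93.4% held the share of the series. In this set AAACA (3 of 10, 10.8% to 60.3%) lay below its share of 63.0% in the series and AGACA (10 of 20, 29.9% to 70.1%) below its share of 71.2%, and the intervals of 10 of the 12 5-mers held that of the series.

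Near the stop codon, within 200 nt, lay 22 of the 164 WT or comparison positions (13.4%, 9.03% to 19.5%) and 18 of the 127 KO positions (14.2%, 9.16% to 21.3%). Of the 573 RRACH positions of the 8 transcripts 45 lay in this window (7.85%). The same shares in the series were 22.6% of the WT or comparison positions, 21.1% of the KO positions and 12.8% of the RRACH positions of transcripts with a listed position. The 8 genes thus had a smaller share near the stop codon than the series for WT or comparison positions and for RRACH positions, while the interval for KO positions held the share of the series. The coding sequence held 123 of the 189 positions, the 3′ UTR 62 and the 5′ UTR 4.

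Of 59 other pathway genes, 58 were found under these symbols in the annotation, and 38 had a listed position in the lists used here, 30 of them in WT or comparison lists and 37 in KO. Comparison lists held 4 positions in 3 of the 38, against the 15.3% of coding genes given above. Sfrp1, a secreted Wnt antagonist, had 2, with 30 WT or comparison and 37 KO positions, and at least 1 of its positions was listed by all 10 tools. Csnk1a1, the casein kinase that primes beta-catenin for Gsk3, had 1, with 37 and 31 positions. Csnk1g2, a casein kinase that acts at the receptor, had 1, with 21 and 15 positions. Tnks2, a tankyrase that modifies axin for degradation, had the most WT positions, 43, and 35 in KO. Fbxw11 and Btrc, the F-box proteins that recognise phosphorylated beta-catenin, had 28 and 27 WT positions and 17 and 25 KO positions. Csnk1d and Csnk1e, which act on Dishevelled proteins, had 27 and 25 in WT and 20 and 30 in KO. Tcf7, a TCF factor, had 27 and 17, and Ccnd1, which encodes cyclin D1, had 22 and 18.

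The median of the 38 genes was 12.5 WT or comparison positions and 9.50 KO positions, that of the 8 genes 17 and 12.5, and that of 10236 coding genes with a listed position 11 and 9. Lrp5, a Wnt co-receptor, was the one gene of this list with WT positions and none in KO, with 3 against 0, among 30 with a WT position. The opposite, KO positions and none in WT, was seen in 8 of the 38 genes, against 9.69% of all coding genes with a listed position, among them Lgr4, a receptor for R-spondins, with 9, and Wls, which carries Wnt ligands to the cell surface, with 6.

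**Figure D5:**
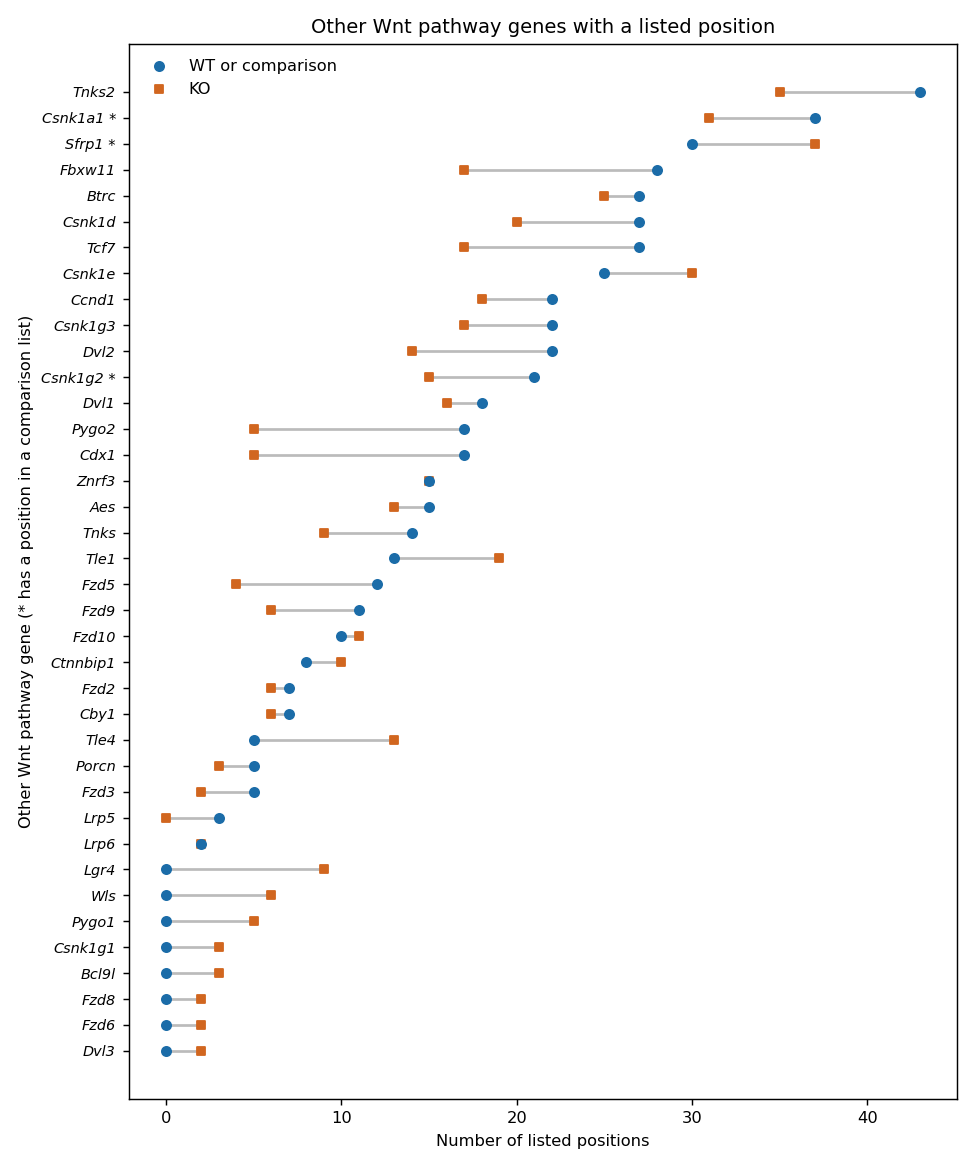
Number of listed positions in WT or comparison lists (circles) and in KO lists (squares) for the 38 other Wnt pathway genes with a listed position, ordered by the first number. Stars mark the 3 genes with a comparison-list position; 8 genes have circles at 0, and Lrp5 has its square at 0.

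Genes whose counts over the 17 lists were most like those of Ctnnb1 were Calr (Pearson r = 0.983), Senp3 (0.973) and Pmm1 (0.966), and those most like Apc were Mtmr12 (0.996), Fbxo30 (0.991) and Tet1 (0.984). These values were computed on log2(positions + 1) over the 17 lists, among 3063 genes with at least 20 listed positions. The 17 lists come from the same 2 libraries and differ in size, which all genes share, so that r is a description only.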

How the data were processed

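Native poly(A) RNA of 1 WT and 1 Mettl3 KO library was sequenced by ONT DRS. The authors basecalled and aligned the reads, ran 10 tools and deposited 17 lists of positions on mm10 (GRCm38). The positions carry no score, rate or coverage. The methods tested RRACH sites above a read minimum, higher for m6Anet, and chose each tool's cut-off by its F1 score against miCLIP sets, and the lists do not state their cut-offs. A site was 1 chromosome, position and strand. Genes and transcripts came from GENCODE M21, a later release than the authors', and sites were placed on the coding transcript most often named in the lists. 5-mers were read from the genome sequence; all 189 were RRACH, and 0 lay in exons of more than 1 gene. Comparison lists compare WT with KO and stand with WT in "WT or comparison".

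Shares have 95% Wilson intervals and ratios exact binomial intervals. No test was run. The members and lists were chosen with earlier results of these data known. Sites named by rule were all comparison-list positions, those listed by at least 5 tools in WT or comparison or at least 4 in KO, and a position with the most WT tools in each other gene. Those of Apc at 34318945, of Tcf7l1 at 72626728, 72626672 and 72627327, the tied ones of Apc and Gsk3b, and those of Axin1 at 26187950 and the paired Gsk3 exons were chosen after their values were seen. Other pathway genes were named by rule as the 10 with the most comparison and then WT positions, and Lrp5, Lgr4 and Wls after their values were seen. For Apc no sequence is given, and 1 position that the rule names is not reported here. The placing of positions was tested on simulated transcripts. Alternatives left out Tombo or MINES, kept lines that name the gene, or changed windows, matching and tool minimum. Python 3.11.15, numpy, scipy, pysam and matplotlib were used.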

Additional observations from a re-analysis of the deposited data

How the results depend on the processing

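Of 65 values of the 8 results under alternatives, 51 stayed within the interval or within 1.5 times the count, and 14 moved. The 51 include settings that could not move a result, such as the restrictions to RRACH and to 1 gene. The tally is therefore no measure of robustness. The share of WT or comparison positions in no KO list, 37.8%, rose to 47.2% without the Tombo lists and to 76.2% with KO lists that held neither Tombo nor Nanom6A. The latter setting kept both tools in WT, so that a rise was built in. Neither share was computed for the whole series. The share of WT listings repeated by the same tool, 50.7%, was 43.6% without Tombo. Counting 1 site per line gave 298 WT or comparison positions and 214 KO positions, by construction, since several lists and transcripts name 1 position. A minimum of 5 tools gave 4 positions where 6 tools gave 1. The share near the stop codon, 13.4%, was 6.71% within 100 nt and 34.1% within 400 nt. Single genes were also left out, a choice made after seeing the data. Without Ctnnb1 there were 80 KO positions, 50.9% of WT or comparison positions were in no KO list, 38.2% of WT listings were repeated, and 0 positions were in a comparison list or listed by at least 6 tools. Without Axin2 the share in no KO list was 29.2%. All positions read RRACH and lay in 1 gene, so those 2 restrictions changed nothing in the 8 genes. No paired analysis was possible because each condition has 1 library. The unknown coverage limits every statement on an unlisted position.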
